A study of Schizosaccharomyces pombe with 144 samples.

Results

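The hour from 7 h to 8 h of meiosis was described by setting the total RNA library of 8 h against that of 7 h over all 5157 genes of the deposited table. These are 2 of the 10 libraries in the table and 2 of the 144 samples of the series, and they were taken by their labels, not by a measured value. The series follows heterochromatin and the methyltransferase Clr4 in fission yeast, and the table holds RNA of meiosis at each hour from 0 h to 8 h and a library of asynchronous growing cells of that strain (mitosis). The strain was a diploid, h-/h-, that carries the alleles ade6-M210 and ade6-M216. The pat1 gene was replaced by NatR on both homologues, and both carry pat1-as(L95A) with HygR, an analog-sensitive form of the kinase. A lacO array with ura4+ and KanR marks cen2(D107), lacI-GFP sits at his7+, MatPc with Bleo at lys1, and clr4 is wild type. All of these alleles are shared by the 10 libraries, so no library without them was compared. The entry into meiosis was made through the pat1 allele and not through mating, and there was 1 strain and 1 library per time point.

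In fission yeast the Pat1 kinase holds back Mei2, an RNA-binding protein that starts meiosis, and the kinase is inactivated on entry. Genes of the middle stage, many of them switched on by the forkhead factor Mei4, serve the nuclear divisions and the forespore membrane, which grows out from the spindle pole bodies and encloses each nucleus. A wall of glucans and chitin-derived polymer is then laid down around the spore under a coat of the Isp3 protein, and the wall of the ascus is later digested by glucanases.

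Levels are given in RPKM, which divides the reads of a gene by its length and by the depth of the library. Where 3 levels of a gene are listed without hours they are those of 6 h, 7 h and 8 h, and where 2 are listed those of 7 h and 8 h. The RPKM values were scaled to 20694445 reads at 7 h and 18396222 reads at 8 h. At the median gene length of 1793.5 bases, 5 RPKM stands for 186 reads at 7 h (exact Poisson 95% interval 160 to 215) and 165 reads at 8 h (141 to 192), which covers counting error only. The call of a gene as higher or lower needed a change of 2-fold or more, 1 on the scale of log2(RPKM + 1), and a level of 5 RPKM at 7 h or 8 h. With 1 library per time point this is a rule of size and not a test, there is no replicate spread, and no p-value is given. The median change over all genes was 0.31 as deposited. It was 0.03 after each library was divided by its median ratio to the geometric mean of the 10 libraries (factors 0.695 at 7 h and 0.857 at 8 h), and results are given on both scales. Fewer cells of a stage and less RNA per cell cannot be told apart in such libraries.

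Of 4897 genes at 5 RPKM or more, 248 were called higher at 8 h (5.06%) and 71 lower (1.45%) as deposited. After rescaling 70 were higher (1.43%) and 176 lower (3.59%). The 70 were all among the 248 and the 71 all among the 176. Such nesting follows from a scaling that shifts nearly all genes in the same direction. Calls on 1 scale alone were 178 higher as deposited and 105 lower after rescaling. The shares of 5.06%, 1.45%, 1.43% and 3.59% of all genes are the background for every count of list members. At 4-fold, 7 genes were higher (0.143%) and 0 lower (0.0%) as deposited, and 1 gene was higher on both scales. The hour was thus one of moderate changes in which the balance of higher and lower calls rested on the scaling.

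**Figure D1:**
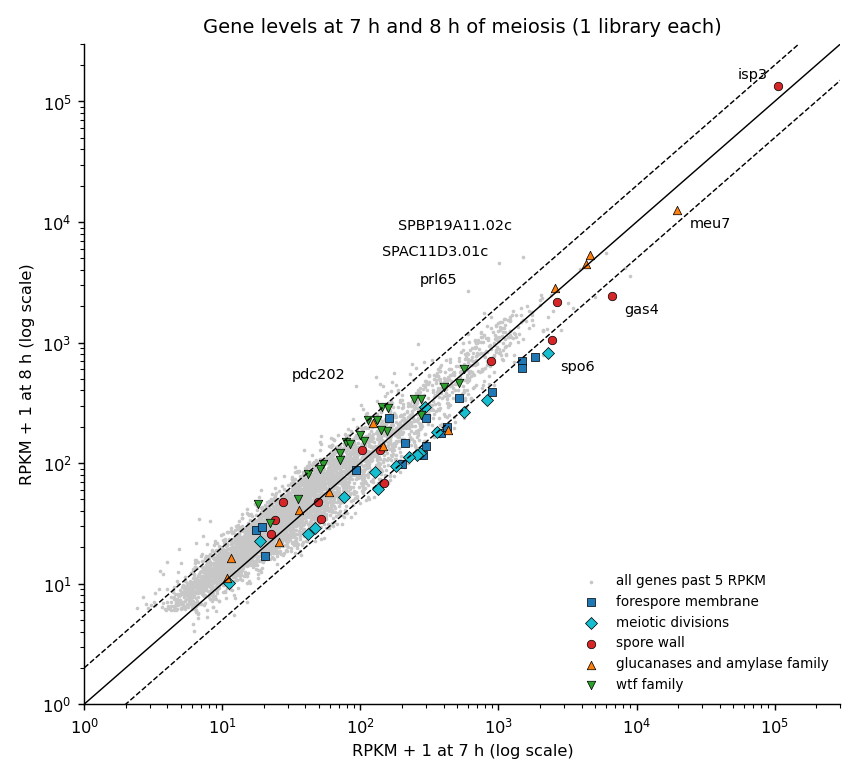
Each point is a gene, with its level at 7 h on the x axis and at 8 h on the y axis, both as RPKM + 1 on log scales. The solid line marks equal levels and the dashed lines 2-fold differences. Many forespore membrane and division genes lie near or under the lower dashed line, while others lie near or above the solid line. The gene isp3 lies alone at the top right, and a few genes such as prl65 and pdc202 lie far above the upper dashed line.

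Genes highest at 6 h among the hours from 0 h to 6 h accounted for most of the lower calls. Genes were grouped by the hour of their highest level from 0 h to 6 h, where that level reached 5 RPKM and 4-fold over the lowest, so that neither library of the comparison chose the groups. Of the 274 genes highest at 6 h, 63 were called lower (23.0%, against 1.45% of all genes) and 8 higher, and after rescaling 114 (41.6%, against 3.59%) and 4. Their median change was -0.54 as deposited and -0.84 after rescaling, with quartiles of -0.98 and 0.10 as deposited. The 24 genes highest at 5 h had a median of -0.52 (-0.82 after rescaling). Of these, 1 was called lower (4.17%), or 5 after rescaling (20.8%), against 1.45% and 3.59% of all genes.

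Genes highest at 0 h to 3 h among those hours had medians on the other side of 0. The medians of the genes highest at 0 h, 1 h, 2 h and 3 h were 0.50, 0.55, 0.52 and 0.47 as deposited and 0.22, 0.28, 0.24 and 0.20 after rescaling. Of the 365 genes highest at 0 h, 34 were called higher (9.32%) and 1 lower, or 9 (2.47%) and 2 after rescaling. Of the 256 highest at 1 h, 26 were higher (10.2%) and 0 lower, or 5 (1.95%) and 0 after rescaling. Over all genes 5.06% were higher and 1.45% lower as deposited, and 1.43% and 3.59% after rescaling. The shares of higher calls after rescaling were thus close to that of all genes. The 45 genes highest at 4 h lay between, at 0.17 as deposited and -0.13 after rescaling, a sign that turned with the scaling. The 3896 genes in no group had a median of 0.29, or 0.01 after rescaling.

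**Figure D2:**
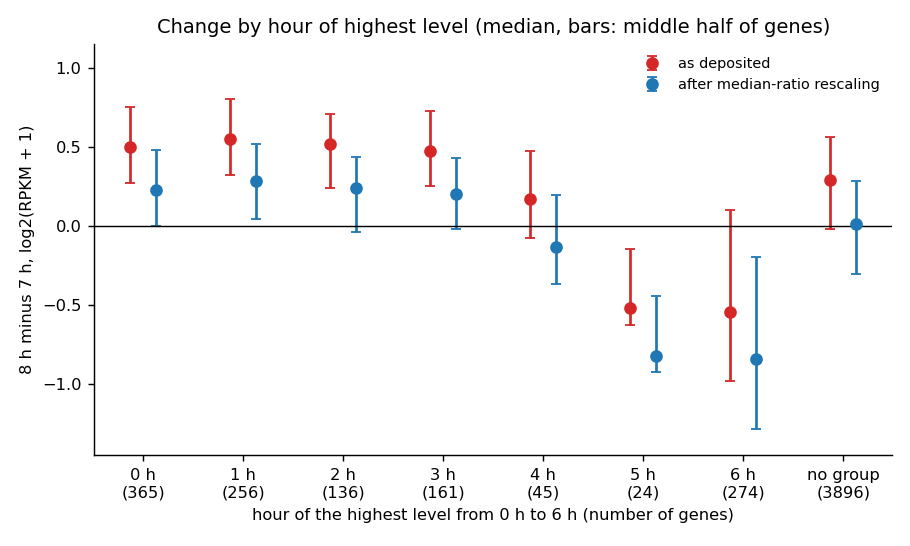
Change from 7 h to 8 h in log2(RPKM + 1) on the y axis for genes grouped on the x axis by the hour of their highest level from 0 h to 6 h, with the number of genes in brackets. Points are medians and bars run between the quartiles, in red as deposited and in blue after median-ratio rescaling. The groups of 5 h and 6 h lie below 0 on both scales and those of 0 h to 3 h above it.

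The 6 h group did not move as 1 block. Over the whole course, 150 of its 274 genes were highest at 6 h, 49 at 7 h and 75 at 8 h. Of these genes 191 had a change below 0 and 83 above it, from -1.48 to 2.16. In reads, the group without isp3 took 28.5% of the library, then 31.0% and then 22.8% over 6 h, 7 h and 8 h. The gene isp3 alone took 7.87%, 10.7% and 13.6%. The genes highest at 0 h to 5 h went from 9.29% at 7 h to 11.2% at 8 h, and the remaining genes from 48.9% to 52.4%. These are shares of 1 whole, so a gain in one group lowers the others.

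**Figure D3:**
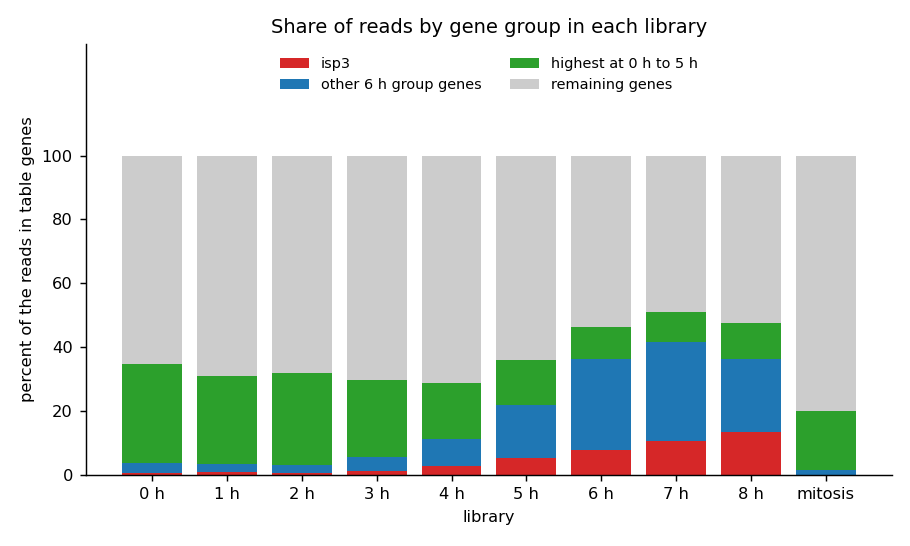
Stacked bars give the percent of the reads in table genes (y axis) that fell in 4 gene groups in each library (x axis, 0 h to 8 h and mitosis). The blue share, 273 genes highest at 6 h without isp3, shrinks from 31.0% at 7 h to 22.8% at 8 h while the red share of isp3 grows from 10.7% to 13.6%.

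Genes of the meiotic divisions were lower as a group. Of 16 measured members, 7 were called lower and 0 higher as deposited, and 10 and 0 after rescaling, against 1.45% and 3.59% of all genes. Their median change was -0.97, or -1.27 after rescaling. The largest fall of any gene with a symbol was that of spo6, the regulatory subunit of a kinase needed for the second meiotic division. Its levels of 6 h, 7 h and 8 h were 2549, 2270 and 812 RPKM, against 3.30 in mitosis. That is a change of -1.48 (-1.78 after rescaling), or 2.80-fold lower, with an exact 95% counting interval of 2.76 to 2.84. The level was nearly held from 6 h to 7 h and dropped in the next hour.

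The kinase of the same complex, spo4, read 1457, 826 and 336 RPKM, a change of -1.30 for the last hour. Regulators of the anaphase-promoting complex, which marks proteins for destruction at each division, stood beside it. The activator gene slp1 read 434, 258 and 115 RPKM, and mes1, an inhibitor of the complex in meiosis, 549, 271 and 121. Both had been falling since 6 h, and both had a change of -1.16. The sporulation activator gene mfr1 differed in timing, at 452, 559 and 263 RPKM, highest at 7 h and then lower by -1.08.

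The securin gene cut2, whose product restrains the protease separase until anaphase, read 224 and 111 RPKM. This change of -1.01 was just inside the size rule. The meiotic cyclin gene rem1 read 209, 132 and 60.0 RPKM, a change of -1.13. The B-type cyclin gene cdc13 read 359 and 180 RPKM, and its change of -0.99 fell just outside the rule as deposited and inside it after rescaling, at -1.29. The factor gene mei4 read 267, 127 and 84.1 RPKM, with most of its decline before 7 h, a change of -0.59. Of the 16 division genes, spo5 and crs1 alone had values above 0, at 0.01 and 0.28, and both lay below 0 after rescaling. The kinase gene cdc2 read 61.0 and 77.3 RPKM, with changes of 0.34 and 0.04. Of 13 regulators of that kinase, 1 was called lower and 0 higher, or 3 and 0 after rescaling. Over all genes 1.45% and 3.59% were lower. The medians of the list were 0.16 and -0.13, and it shares rem1, cdc13, cdc25 and crs1 with the division list.

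Forespore membrane genes had the lowest median of the 34 lists on both scales, at -1.02 as deposited and -1.32 after rescaling. Of 17 measured members, 9 were called lower and 0 higher on each scale, against 1.45% of all genes lower as deposited and 3.59% after rescaling. The gene meu14, whose product sits at the leading edge of the growing membrane, read 2225, 1834 and 763 RPKM. This is 2.40-fold lower over the last hour (2.36 to 2.45), a change of -1.26. The septin genes spn5 and spn6, whose filaments guide the membrane, dropped from 1477 to 616 RPKM and from 903 to 386 RPKM. The other 2 septin genes of the list, spn2 and spn7, dropped from 1486 to 702 RPKM and from 425 to 199 RPKM. All 4 septin genes were called lower, with changes from -1.26 to -1.08.

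The kinase gene mug27 read 364, 285 and 115 RPKM, the largest fall of the list at -1.30. The gene spo13, of the meiotic spindle pole body, read 385 and 176 RPKM, and spo3, a membrane component, 295 and 138. Some members also serve growing cells. The syntaxin gene psy1 read 296 and 236 RPKM, a change of -0.32. The phospholipid transfer gene spo20 read 160 and 234 RPKM, a change of 0.55, and the secretion gene spo14 16.4 and 27.0 RPKM, a change of 0.69. These last 2 and mso1 were the 3 members above 0 on both scales.

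Spore wall genes did not move together. Of 13 measured members, 3 were called lower and 0 higher on both scales, against 1.45% and 3.59% of all genes lower, and the median was -0.11, or -0.41 after rescaling. The coat protein gene isp3 had the highest level of any gene, with 78240, 106257 and 134840 RPKM over 6 h, 7 h and 8 h. Its change over the last hour was 0.34, and after rescaling it was 0.04. The gene gas4, a glucanosyltransferase that cross-links glucan of the spore wall, read 7767, 6648 and 2418 RPKM, 2.75-fold lower at 8 h (2.72 to 2.77). The GPI-anchored protein gene meu10 read 2443 and 1056 RPKM, a change of -1.21. The 1,3-beta-glucan synthase gene bgs2 read 148 and 67.5 RPKM, a change of -1.12. These 3 were the called members, and all had been highest at 6 h.

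The synthases of alpha-glucan split. The gene mok14 read 1944, 2659 and 2167 RPKM, with a change of -0.30, and mok13 51.3 and 33.2 RPKM, with -0.61. The gene mok12 read 8.01, 26.4 and 46.2 RPKM, a change of 0.78, and stood above 0 on both scales. The chitin synthase gene chs1 read 21.5 and 24.9 RPKM, and the chitin deacetylase gene cda1 23.1 and 33.0, changes of 0.20 and 0.50. None of these 5 passed the size rule.

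Glucanases and enzymes of the alpha-amylase family included some of the highest levels at 8 h. Of 12 measured genes, 1 was called lower and 0 higher on both scales, against 1.45% and 3.59% of all genes lower, with medians of 0.04 and -0.25. The amylase-family gene meu7 was second in level at both hours, with 12445, 19538 and 12647 RPKM, a change of -0.63. The glucanase gene agn2, whose enzyme opens the ascus wall, read 4625 and 5292 RPKM. The glucanase gene eng2, which acts in the same step, read 2549 and 2856 RPKM, and the amylase-family gene mde5 4290 and 4490. The changes of agn2, eng2 and mde5 were 0.19, 0.16 and 0.07 as deposited and -0.11, -0.14 and -0.24 after rescaling, so their sign turned with the scaling. In RPKM all 3 were at their highest level of the course at 8 h. The called member was aah2, an amylase gene at 429 and 186 RPKM, with a change of -1.20. The glucosidase gene exg2 read 51.5, 122 and 216 RPKM, a change of 0.81.

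**Figure D4:**
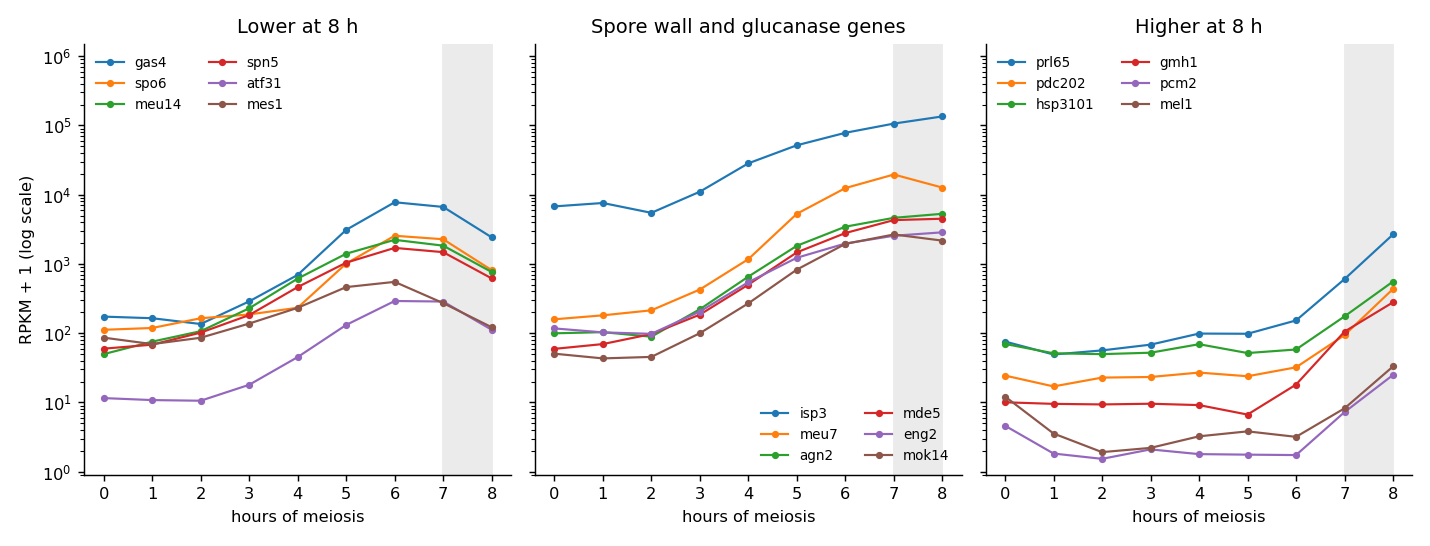
Levels of 18 genes as RPKM + 1 on a log scale (y axis) over 0 h to 8 h of meiosis (x axis), with 1 library per point and the hour from 7 h to 8 h shaded. The genes at left, such as gas4 and spo6, are highest at 6 h and drop after 7 h. In the middle isp3, agn2, mde5 and eng2 keep rising in RPKM while meu7 and mok14 turn down, and at right prl65, pdc202 and 4 others climb mostly after 6 h.

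Transcription factors of the middle and late programme were divided as well. Of 13 transcription factor genes, 2 were called lower and 0 higher on both scales, against 1.45% and 3.59% of all genes lower, with medians of 0.01 and -0.28. The gene atf31, a bZIP factor of sporulation, read 290, 285 and 111 RPKM, 2.57-fold lower in the last hour (2.50 to 2.65). Its relative atf21 read 272, 290 and 229 RPKM, a change of -0.34. The meiotic factor gene cuf2 read 573, 476 and 193 RPKM, a change of -1.30. The gene rsv2, which acts on stress genes during sporulation, read 34.3 and 41.7 RPKM, with changes of 0.27 and -0.02. Of these 4, atf31 and cuf2 passed the rule and atf21 and rsv2 did not.

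Among 10 genes of meiotic RNA-binding proteins, 1 was called lower and 0 higher, or 2 and 0 after rescaling. Over all genes 1.45% and 3.59% were lower, and the medians of the list were 0.05 and -0.25. The called member was crp79, a poly(A)-binding protein gene at 813, 566 and 237 RPKM. The gene mug28 read 136 and 72.3 RPKM and passed the rule after rescaling alone, at -1.20. The gene mei2 read 213 and 227 RPKM.

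Of 105 mug genes, 16 were called lower and 1 higher, or 33 and 1 after rescaling, against 1.45% and 3.59% of all genes lower, with medians of -0.33 and -0.62. Of 17 meu genes, 5 were lower and 0 higher, or 6 and 0, with medians of -0.38 and -0.68. Both lists were named in the literature for genes that rise in meiosis, so their place among the late genes is not independent. The glucosidase gene meu17 read 8936 and 3557 RPKM, a change of -1.33, and moved from rank 3 to rank 10 in level. The gene mug137, a BAR-domain adaptor, read 2090 and 793 RPKM, a change of -1.40. The gene meu27 read 480 and 216 RPKM, a change of -1.15. Of the 105 mug genes 31 had changes above 0, or 15 after rescaling, and 15 were highest at 8 h. The 1 called higher was mug30, a ubiquitin ligase gene at 32.6 and 83.8 RPKM, a change of 1.34.

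Other large falls lay outside these groups. As background for the list counts below, 1.45% of all genes were called lower and 5.06% higher as deposited. After rescaling these shares were 3.59% and 1.43%. The hexose transporter gene ght6 read 3618, 2851 and 1268 RPKM, a change of -1.17, and was the called member of the 25 genes of nutrient uptake (1 lower and 0 higher, medians 0.29 and 0.01). The formin gene for3, which builds actin cables, read 178, 125 and 51.5 RPKM, a change of -1.27, in a list of 10 actin genes with 1 lower and 0 higher and medians of 0.09 and -0.19. Among 8 genes of cell separation, with medians of 0.08 and -0.21, adg1 read 5.15 and 11.8 RPKM and was called higher as deposited alone. The deubiquitinase gene ubp16 read 84.4 and 34.5 RPKM and mug132 72.7 and 30.0. All of these except adg1 had been highest at 6 h.

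In all, 62 of the 71 genes called lower had their highest level of the course at 6 h and 7 at 7 h. Among all 5157 genes 416 and 83 did. The median levels of the 71 over 6 h, 7 h and 8 h were 291, 240 and 111 RPKM, against 4.66 in mitosis. At 8 h 69 of the 71 still stood above growing cells, against 2484 of all 5157 genes (48.2%). The 71 were chosen for being lower than an hour before, and a gene called lower cannot be highest at 8 h. The hours of their highest level are thus a description. As a set they still stood far above their level in growing cells at 8 h.

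The genes called higher included a small set with steep rises and a wide set of modest ones. Among genes with a symbol, pdc202 rose most. This pyruvate decarboxylase gene read 31.1, 92.7 and 434 RPKM, 4.68-fold higher in the last hour (4.53 to 4.85), a change of 2.22 and of 1.92 after rescaling. The gene prl65, for which the reference gives no function, read 152, 603 and 2664 RPKM, a change of 2.14 (1.84 after rescaling). The melibiase gene mel1 read 7.20 and 32.0 RPKM, a change of 2.01 (1.76 after rescaling). In these 3 genes the level at 8 h was the highest of the course, and most of the rise came after 6 h.

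Of the other steep rises, 4 are given here together. The gene pcm2, a methyltransferase for damaged aspartate residues, read 0.734, 6.24 and 23.9 RPKM, a change of 1.78 that rests on 176 and 599 reads. The glyoxalase gene hsp3101 read 57.0, 174 and 556 RPKM, 3.20-fold higher in the last hour (3.09 to 3.31). Its relative hsp3104 read 16.3 and 45.0 RPKM, a change of 1.41. The DNA glycosylase gene mag2 read 17.4 and 51.8 RPKM, a change of 1.52. All 4 were called higher on both scales.

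The other large rises with a symbol were of mixed function. The galactosyltransferase gene gmh1 read 17.1, 104 and 278 RPKM, with a steeper fold rise before 7 h than after it. The gene cum1 read 137 and 454 RPKM, rds1 50.7 and 142, and cue2 43.5 and 115. The G protein gamma subunit gene git11, of the glucose sensing pathway, read 22.9 and 61.3 RPKM. The RNA polymerase I subunit gene ker1 read 13.0 and 36.8 RPKM. The splicing gene lsm2 read 6.70 and 20.2 RPKM from 87 and 233 reads, and its 3.01-fold rise has an interval of 2.35 to 3.90. Each of these 7 was called higher on both scales, with changes of 1.38 to 1.72.

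Some of the strongest rises were in genes known by systematic ID alone, named here after their values were seen. The gene SPAC11D3.01c, a Con-6 family protein in the reference annotation, read 224, 1010 and 4531 RPKM, a change of 2.16, and moved from rank 94 in level at 7 h to rank 6. The uncharacterised gene SPBP19A11.02c read 303, 1510 and 5165 RPKM, a change of 1.77, and moved from rank 38 to rank 5. The gene SPAC869.06c, with a cation-binding domain, read 72.2, 260 and 973 RPKM, a change of 1.90. The gene SPBPB21E7.02c had the largest change of all, 2.34, at 5.80 and 33.4 RPKM, from 77 and 394 reads. Both SPAC11D3.01c and SPBP19A11.02c stood above mde5 in RPKM at 8 h.

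In the set of 248 genes called higher, 137 were highest over the course at 8 h (55.2%), against 11.1% of all genes. Another 38 were highest at 0 h and 37 at 1 h, against 1237 and 1011 of all 5157 genes. Since a gene called higher cannot be highest at 7 h, the share at 8 h is a description. The 248 had a median level of 37.0 RPKM at 0 h and of 14.0, 21.2 and 47.5 RPKM over 6 h, 7 h and 8 h. Of these genes 151 were lowest at 6 h, against 1208 of all 5157. The set therefore held genes that rose from a low late point towards their level at 0 h, as well as genes that passed any earlier level. Of the 248, 106 are known by systematic ID alone (42.7%), against 1410 of all 5157 genes (27.3%). Higher calls were more frequent among short genes. With genes split by length into 5 classes of equal size, the median change was 0.40 in the shortest class and 0.18 in the longest, and 8.27% and 1.17% of these genes were called higher. The share called lower was 0.973% in the shortest class and 1.56% in the longest, with a higher share of 1.85% in the second class, so it did not follow the order of length. The part of length in the calls was not tested.

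The wtf family, which holds spore killers and their antidotes, had the highest median of the 34 lists on both scales, at 0.76 as deposited and 0.47 after rescaling. Of 25 measured members, 3 were called higher and 0 lower, against 5.06% of all genes, and after rescaling 1 and 0, against 1.43%. The gene wtf15 read 6.67, 17.2 and 44.7 RPKM, a change of 1.33 that was 1.05 after rescaling. The genes wtf7 and wtf17 stood at 144 and 294 RPKM and at 112 and 225 RPKM, and passed the rule as deposited alone. Most members thus lay above 0, 23 as deposited and 19 after rescaling, while few passed 2-fold. As deposited 19 lay above the median of all genes and 6 below. Where copies are nearly identical, how their reads were shared out is uncertain, and this holds for the wtf, Tf2, histone, elongation factor and ribosomal protein genes.

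Chaperone genes moved in both directions. Of 16 measured members, 2 were called higher and 0 lower as deposited, against 5.06% and 1.45% of all genes, and 1 higher and 2 lower after rescaling, against 1.43% and 3.59%. Their medians were 0.02 and -0.28. The small heat shock gene hsp16 read 109, 168 and 471 RPKM, 2.80-fold higher in the last hour (2.68 to 2.92). The gene hsp9, a small stress protein, read 781 and 1760 RPKM, a change of 1.17, which was 0.87 after rescaling. In contrast the general chaperone genes bip1, of the endoplasmic reticulum, and mas5 dropped from 787 to 478 RPKM and from 248 to 136 RPKM, and both passed the rule after rescaling, at -1.02 and -1.16.

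The 11 genes listed for oxidative defence had 0 calls in either direction on both scales. All 11 had changes above 0 as deposited, with a median of 0.55, where the median of all genes was 0.31. Of the 11, 8 lay above that median of all genes and 3 below. After rescaling 8 had changes above 0, with a median of 0.25. The sulfiredoxin gene srx1 read 71.2 and 113 RPKM, the catalase gene ctt1 68.4 and 104, and the superoxide dismutase gene sod1 749 and 1115. One listed name, ccp1, matched SPBC36B7.08c, a histone chaperone in the reference, and that gene is no antioxidant. The 10 genes of trehalose and glycerol metabolism had medians of 0.09 and -0.21. Of these, 0 were called as deposited and 1 was lower after rescaling, against 3.59% of all genes. That member was tps1, which makes the precursor of trehalose, at 842, 636 and 349 RPKM.

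Of 15 glycolytic genes, 1 was called higher and 0 lower on both scales, against 5.06% and 1.45% of all genes as deposited and 1.43% and 3.59% after rescaling, with medians of -0.17 and -0.47. The called gene was eno102, an enolase gene at 8.84 and 24.4 RPKM, while the major enolase gene eno101 read 869 and 718. Of the others, 10 lay below 0 as deposited, among them pgi1 at 654 and 416 RPKM and tpi1 at 2469 and 1838. The 10 citrate cycle genes, which include 3 succinate dehydrogenase genes of the respiratory list, had 0 calls and medians of -0.36 and -0.66, with kgd2 at 179 and 117 RPKM and idh2 at 262 and 176. Of 52 measured genes of the respiratory chain and ATP synthase, 1 was called higher and 0 lower on both scales, with medians of 0.06 and -0.24. It was the assembly factor gene cox14, at 10.6 and 28.2 RPKM. The 21 genes of sterol and fatty acid synthesis had 0 calls and medians of 0.16 and -0.14.

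**Figure D5:**
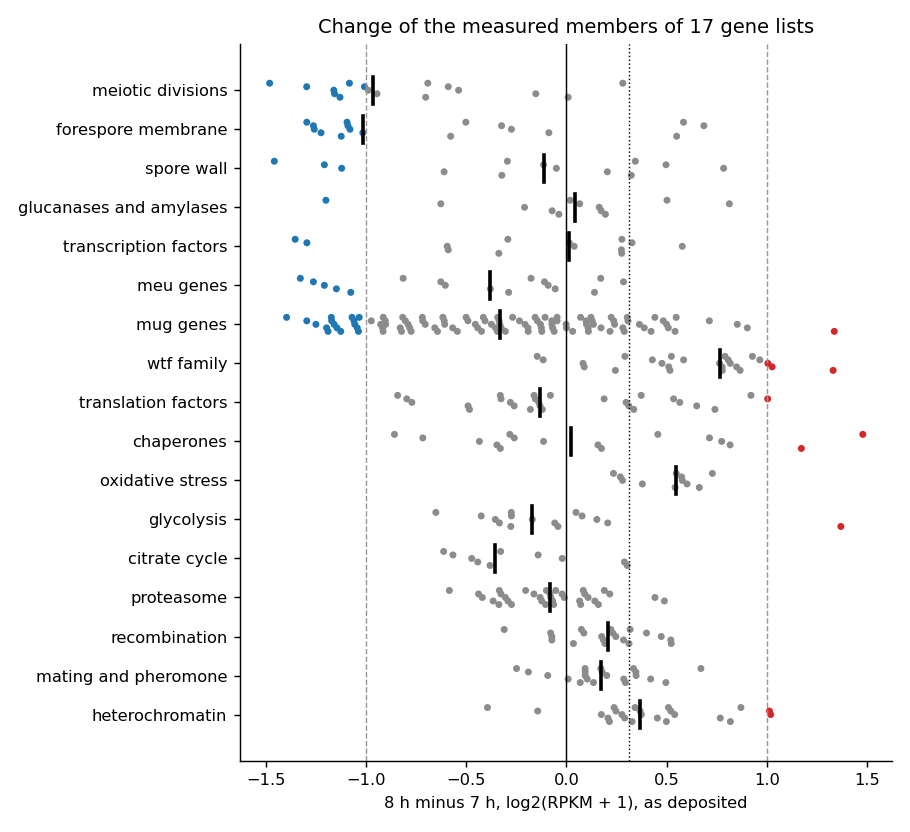
Each point is a measured member of a gene list (y axis), placed by its change from 7 h to 8 h in log2(RPKM + 1) as deposited (x axis). Blue points are called lower and red points higher, thick bars are list medians, the dotted line is the median of all genes at 0.31 and the dashed lines mark 2-fold. Many division and forespore membrane genes crowd around the left dashed line. Most wtf genes and all oxidative defence genes lie right of 0, as does the median of all genes.

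Genes of protein synthesis and turnover stayed mostly within 2-fold. Of 136 ribosomal protein genes, 4 were called higher and 0 lower as deposited, against 5.06% and 1.45% of all genes, and 0 in either direction after rescaling. Their medians were 0.28 and -0.02. The 4 included rpl2301, at 286 and 691 RPKM, and rps2401, at 331 and 719. The 14 ribosome biogenesis genes had 0 calls and medians of 0.48 and 0.18, with the fibrillarin gene fib1 at 65.7 and 100 RPKM. Among 27 translation factor genes, with medians of -0.13 and -0.43, 1 was higher and 0 lower as deposited, against 5.06% and 1.45% of all genes. After rescaling 0 were higher and 3 lower, against 1.43% and 3.59%. The 3 were the elongation factor genes tef101, tef102 and tef103, and tef103 read 3439 and 1916 RPKM. The called gene was tif6, at 93.2 and 188 RPKM, a change of 1.00.

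The 34 proteasome genes had 0 calls and medians of -0.08 and -0.38. Of 24 autophagy genes, 1 was called higher and 0 lower as deposited, against 5.06% and 1.45% of all genes. After rescaling 0 were called, and the medians on the 2 scales were 0.30 and 0.01. The called gene was atg3, of the Atg8 conjugation system, at 30.6 and 67.7 RPKM. The 3 vacuolar protease genes had 0 calls and medians of -0.34 and -0.64, with isp6 at 604 and 476 RPKM. Among 23 genes of mRNA decay 0 were called, or 1 lower after rescaling against 3.59% of all genes, with medians of 0.30 and 0.01. That gene was the deadenylase gene ccr4, at 291 and 173 RPKM, a change of -0.75. Of the 23, 18 had changes above 0 as deposited and 13 after rescaling. As deposited 11 lay above the median of all genes and 12 below. The largest changes were those of the decapping gene dcp1, at 10.5 and 21.4 RPKM, and the poly(A)-binding protein gene pab2, at 30.1 and 55.2.

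Genes of the earlier stages kept their levels within 2-fold. Recombination genes (20), S phase genes (19), histone genes (10) and mating and pheromone genes (21) had 0 calls on both scales. Their medians were 0.21, 0.32, 0.31 and 0.17 as deposited and -0.08, 0.07, 0.01 and -0.12 after rescaling. The largest change in each of these lists was above 0 as deposited. In recombination it was that of rec12, which makes the breaks that start the process, with a change of 0.52. The S phase repressor gene yox1 read 8.99 and 17.2 RPKM, the histone H3 gene hht3 549 and 991, and the kinase gene byr2 of the pheromone pathway 14.4 and 23.5. The 13 Tf2 retrotransposons had 0 calls and medians of 0.47 and 0.24. Of 7 tubulin and kinesin genes, 0 were called, or 2 lower after rescaling against 3.59% of all genes, with medians of -0.17 and -0.47. Those were the kinesin genes klp5, at 140 and 79.4 RPKM, and klp6, at 59.3 and 35.9.

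Heterochromatin genes lay near the median of all genes. Of 23 measured members, 2 were called higher and 0 lower as deposited, against 5.06% and 1.45% of all genes. After rescaling 0 were called, and the medians were 0.37 as deposited and 0.11 after rescaling. The called genes were the deacetylase gene sir2, at 7.01 and 15.2 RPKM, and arb2, of an Argonaute chaperone complex, at 18.1 and 37.8. The methyltransferase gene clr4 read 6.09 and 7.22 RPKM, 1.19-fold (1.06 to 1.33), and swi6, the gene of a protein that binds methylated histone H3, 28.4 and 40.9. Their changes were 0.21 and 0.51 as deposited and -0.05 and 0.22 after rescaling.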

How the data were processed

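A stranded total RNA kit was used, per the labels' protocols. Per the file headers, the deposited table holds RPKM values made by the authors and columns named TPM. The latter are a score rather than TPM: the deposited score divided by RPKM takes 10 values that recur by row within each library. They served only to find the relative library totals, with which RPKM gave whole reads for 5142 of 5157 genes (relative tolerance 1e-09). Counting intervals rest on these reads. For all its assays together, the submitters' processing notes list STAR 2.7.3a, Bowtie 1.2.2, cutadapt 1.18 and SAMtools 1.9 among the tools, and ASM294v2 as the yeast build. How reads were counted, with strand or without, and what was done with reads of several places is not given in the sources used here. Genes that overlap, antisense genes and near-identical copies may therefore share reads.

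Names and products came from an annotation of another build (ASM294v3), of which gene order, gene type and gene lengths were also used. The absolute library totals rest on these lengths, as the value that recurred most often over the matched genes. By systematic ID 1392 genes matched, by symbol 3628 and by synonym 98, and 39 did not match. The change of a gene is its log2(RPKM + 1) at 8 h minus that at 7 h, a scale that understates low genes. A list member was measured at a mean of 1 RPKM or more over 7 h and 8 h. Intervals of folds are exact binomial 95% intervals on the reads of both libraries. The rule for named genes took the 15 largest rises and falls with a symbol, the 4 largest changes of each of 34 lists, 20 fixed genes and the 4 highest levels, 159 genes in all, of which 1 is not reported here. Other genes named in the text were chosen after their values were seen. Gene lists and the comparison were chosen with earlier results of these data known. Alternatives were other scalings, pseudocounts of 0.1 and 5, filters, 4-fold, protein-coding genes only and, chosen after seeing the data, library totals without isp3. The other samples of the series were not analysed here. The tools were pandas 2.3.3, SciPy 1.17.1, NumPy 2.4.6 and, for figures, matplotlib 3.10.9, under Python 3.11.15.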

Additional observations from a re-analysis of the deposited data

How the results depend on the processing

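The count of genes called higher, 248 as deposited, was 70 with the median ratio over 10 libraries, 57 with that of 7 h and 8 h alone, 162 with equal sums without the 20 highest genes, 139 with a pseudocount of 5 and 7 at 4-fold. The count called lower, 71, was 176 and 190 with the median ratios and 0 at 4-fold. Higher calls made up 77.7% of all calls as deposited, 28.5% and 23.1% with the median ratios and 61.6% with equal sums. The median change over all genes, 0.31, was 0.034, 0.0 and 0.20 with these 3 scalings. That of the genes highest at 6 h, -0.54, was -0.84, -0.87 and -0.66, and -0.29 with no minimum rise. No minimum on levels, 20 RPKM, a pseudocount of 0.1, protein-coding genes alone and library totals without isp3 kept both counts within 1.5 times. Of 56 named genes past the size rule, 0 changed sign under any scaling or pseudocount run. The size rule fixed this count beforehand, since the scalings moved genes by less than 1 and a pseudocount cannot turn a sign. Of all 159 named genes, 7 changed sign with each of the median ratios and 2 with equal sums. The sign of the list median changed for 13 and 17 of 34 lists with the median ratios, for 8 with equal sums and for 0 with the other pseudocounts. The cause was not tested. No paired analysis was possible because each time point has 1 library. At 5 RPKM, reads limit the precision of short genes.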

Other observations

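Genes near chromosome ends were counted apart, a grouping chosen after seeing the data. The 40 outermost protein-coding genes of each of 6 ends, in the gene order of the ASM294v3 annotation, gave 238 genes of the table and 162 past 5 RPKM, of which 32 were called higher (19.8%) and 1 lower, against 5.06% and 1.45% of all genes. After rescaling 20 were higher (12.3%) and 3 lower, against 1.43% and 3.59%. The left end of chromosome II gave 11 higher of 22, and the right end of chromosome III 2 of 38. Subtelomeric genes include near-identical copies, whose reads are uncertain, and the part of this in the counts was not tested.

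A few more late genes are named here after their values were seen. The alcohol dehydrogenase gene adh8 read 19.9, 50.4 and 127 RPKM at 6 h, 7 h and 8 h. Among late risers of the 6 h group with changes under 2-fold, the proton pump gene pma2 read 142, 670 and 920 RPKM and mug146 194, 750 and 1231. The metallothionein gene zym1, at rank 4 in level at 7 h and rank 8 at 8 h, read 10334, 8248 and 4173 RPKM.

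The deposited columns named TPM summed to between 773446 and 1315309 per library, and were compared between no libraries.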
